A study of Neurospora crassa with 14 samples.

Results

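The 100 most abundant transcripts of Neurospora crassa mycelium, as ranked by mean signal over a set of deletion and wild type libraries, were described in 5 comparisons. They were chosen from 9477 genes by the average that the authors deposit beside each comparison, which is the same in the tables of all 4 deletions. Before ranking, 15 genes were set aside: 6 histone genes, ccg-1, eas, 4 chaperone genes and the respiratory genes atp-1, atp-2 and cyc-1. Of these, 9 would otherwise have stood among the first 100. The average therefore chose the members, and their levels are given as a description.

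Wild type mycelium and mycelium with a deletion of sds3 (NCU01599), rlp1 (NCU09007), rlp2 (NCU02898) or eaf-3 (NCU06788) gave 10 libraries, 2 per genotype. The 2 libraries of a genotype come from strains with different names, and each such group is therefore 2 strains. A further 4 libraries came from 1 strain, which is his-3 and carries pNCU05173::hph and pNCU07152::nat-1, and received either 5 ul of Trichostatin A or 0 ul. The genes hph and nat-1 confer drug resistance, and Trichostatin A is an inhibitor of histone deacetylases. Only the volume of the drug is given, and its concentration is not stated in the sources used here. All cultures, of 5 ml each, grew for 16 h at 32 °C in minimal medium with sucrose, and those of the marked strain also received histidine. The deletions were made to ask how the RPD3L and RPD3S deacetylase complexes act on transcription. The deposited files hold 1 fold change and 1 average per gene and no value per library, so depth per library was unknown and the spread between replicates could not be seen directly. Values printed after ± are standard errors implied by the deposited p-value, and rose and fell are used where the deposited false discovery rate (FDR) of a gene was below 0.05. In bulk RNA, fewer cells of a type and less RNA per cell cannot be told apart. In the deletion set, conidial genes were far less abundant in wild type than the members: the implied wild type mean was 38.5 for con-6, 388 for con-8, 66.2 for con-10 and 2.8 for con-13.

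The most abundant messages of a growing fungal hypha are mostly those of its protein factory and its sugar metabolism. Ribosomal proteins and translation factors are needed in large amounts for growth, and in fungi their genes are switched together with growth rate and nutrient supply. Glycolytic enzymes carry sugar to pyruvate, and pyruvate decarboxylase and alcohol dehydrogenase lead on to ethanol. Rpd3 complexes remove acetyl groups from histones, and in budding yeast the deacetylase is known to act on ribosomal protein genes. Because a count library has a fixed number of reads, abundant transcripts also take reads from all others, and their share depends on the normalization.

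The 100 members held 27.6% of the summed average while they were 1.06% of the genes. Their averages ran from 213285 for tef-1, which encodes translation elongation factor 1-alpha, down to 18387 for NCU07922, an 11.6-fold range, and the 5 highest alone held 6.72% of the total. The median member had an average of 25274 against 401 over all genes. After tef-1 the order was nmt-1, a thiamine synthesis gene (195493), NCU06110 (188767), gpd-1, which encodes glyceraldehyde-3-phosphate dehydrogenase and is also the clock-controlled gene ccg-7 (143090), and cfp, which encodes pyruvate decarboxylase (134909). Next came the enolase gene emp-7 (96966), hex-1, which encodes the core protein of the Woronin bodies that plug septal pores (91371), the ADP/ATP carrier gene aac (65396), the methionine synthase gene met-8 (61744) and NCU16635 (60223). The proton pump gene pma-1 (58415), the elongation factor 2 gene cot-3 (53145), the alcohol dehydrogenase gene adh-1 (49645), the aldolase gene fba (41639) and ccg-16 (40805) closed the first 15.

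**Figure D1:**
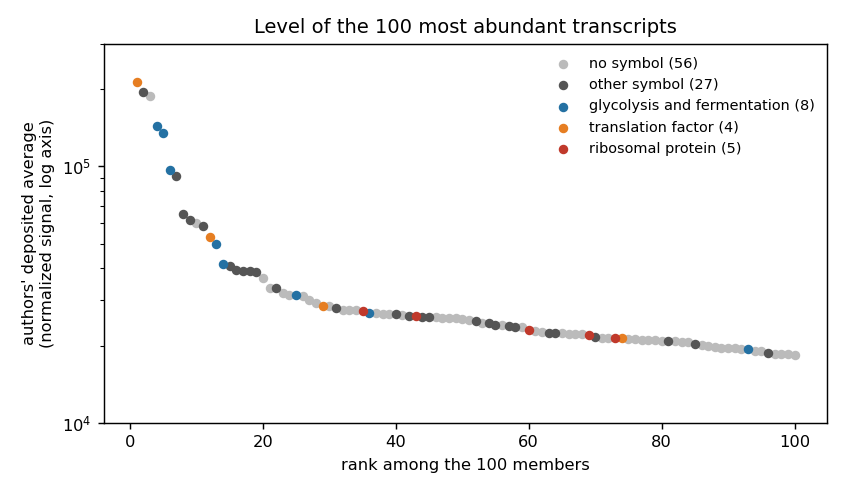
The deposited average of each member (log axis, normalized signal) against its rank, coloured by role. The curve falls steeply from 213285 and then flattens, with a median of 25274. Of the 8 glycolysis and fermentation genes, all but emp-6 (rank 93) stand within the first 36 ranks.

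The lower edge of the set was not a natural boundary. The last 5 members were ccg-14 (18792), NCU02905 (18611), NCU01328 (18606), NCU01948 (18592) and NCU07922 (18387), and the first 5 genes outside were NCU03988 (18358), the ribosomal protein gene crp-4 (18338), the citrate synthase gene cit-1 (18060), ccg-13 (17995) and NCU02744 (17913). An average is not corrected for transcript length. Per kb of gene length in the NC12 gene table, which includes introns, the order of the first 10 genes became NCU06110 (70488), tef-1 (68448), gpd-1 (66802), nmt-1 (66067), hex-1 (54291), ccg-16 (49222), cfp (49040), aac (32294), emp-7 (31668) and oli (27461). The gene oli encodes the proteolipid subunit of mitochondrial ATP synthase. Of the 100 genes highest per kb, 74 were members. Of the members, 44 had a symbol in that table against 11.8% of all genes, and the other 56 are given by locus tag alone.

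The set was also abundant in the Trichostatin A table, which the ranking did not use. With the same 15 genes set aside, 80 members stood among the 100 highest averages of that table and all of them among the first 500, and they held 29.7% of its summed average. The first 5 there, over all genes, were cfp (433111), gpd-1 (272864), NCU06110 (238577), nmt-1 (232436) and tef-1 (207488). Counted over all genes of that table, am stood at 333 and ilv-2 at 273, while ccg-14 stood at 8 with an average of 139749. The averages of the deletion tables and of the Trichostatin A table were normalized separately and are not compared in size.

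Group means for wild type and each deletion were implied from the average and the 4 fold changes, as if the average covered all 10 libraries of the set with equal weight, which the files do not state. On that basis the members took 29.5% of the implied signal in wild type and 24.3% without sds3, with 27.9% in the rlp1, 27.8% in the rlp2 and 28.1% in the eaf-3 deletion. The median member was at 33115 in wild type, 19077 without sds3, 23796 without rlp1, 25318 without rlp2 and 23580 in the eaf-3 deletion. Of the 100 highest implied wild type means, 80 belonged to members. The rises described below depended on this choice of ranking. Among the 100 genes highest by implied wild type mean, 2 rose and 81 fell without sds3, 2 rose and 17 fell without rlp1, 0 rose and 3 fell without rlp2, and 1 rose and 31 fell without eaf-3. Among the members, chosen by the average over all groups, the rises in the same order numbered 12, 13, 6 and 10.

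Without sds3, most members were lower than in wild type. Of 100 members, 61 fell in the authors' deposited table, against 15.7% of all tested genes, and 12 rose, against 19%. The median log2 fold change of the members was -0.94, against 0.07 over all genes, and single values ran from -1.84 to 2.79. The falls included ribosomal protein, translation factor and amino acid synthesis genes, and genes without a symbol made up 37 of the 61 falls and 8 of the 12 rises. Most of the glycolytic genes did not pass the test.

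The list of ribosomal protein genes was matched by symbol. Members without a symbol, or with another symbol, may also encode ribosomal proteins and are not counted in it. All 5 members on this list, called the ribosomal protein genes here, fell without sds3, with a median of -1.49. They are ubi::crp-6, which encodes ubiquitin fused to a ribosomal protein, cyh-2, the cycloheximide resistance gene, crp-5, po, which encodes the stalk protein P0, and crp-10. The implied mean of po was 38654 in wild type, 13721 without sds3, 18448 without rlp1, 21968 without rlp2 and 17485 in the eaf-3 deletion. Wild type was the highest of the 5 groups and the strain without sds3 the lowest. In the authors' deposited table the log2 fold change without sds3 was -1.49 ± 0.36 for po (FDR = 0.000243), -1.55 ± 0.40 for crp-5 (FDR = 0.000826) and -1.11 ± 0.29 for ubi::crp-6 (FDR = 0.000795). Over the whole table the list of this role holds 12 symbols, of which 11 fell without sds3 and none rose. The twelfth, un-17, had an average of 733 and a log2 fold change of 0.21.

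The 4 members on the list of translation factors, also matched by symbol, followed the ribosomal ones. The implied mean of tef-1 was 279099 in wild type, 121164 without sds3, 213809 without rlp1, 209573 without rlp2 and 242781 in the eaf-3 deletion. Its level without sds3 was therefore 43.4% of wild type, while the other 3 deletions lay between 75.1% and 87%. In the authors' deposited table the falls without sds3 were those of tef-1 (-1.20 ± 0.34, FDR = 0.00231), cot-3 (-1.07 ± 0.37, FDR = 0.0149), eif5A, a translation factor gene (-0.94 ± 0.29, FDR = 0.00487), and cpc-2, which encodes a ribosome-bound scaffold protein (-1.42 ± 0.33, FDR = 0.000145). The difference between the sds3 and rlp1 deletions was -0.82 ± 0.48 for tef-1 and did not pass its own test (FDR = 0.317, or 0.0587 with part of the error shared, as described below).

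Members of amino acid synthesis, both mitochondrial members, the proton pump gene and the actin gene also fell without sds3. The implied mean of am, which encodes the NADP-linked glutamate dehydrogenase that fixes ammonium, was 35849 in wild type, 9982 without sds3, 21738 without rlp1, 24286 without rlp2 and 28685 in the eaf-3 deletion. Its fall without sds3 was the largest of any member, -1.84 ± 0.35 in the authors' deposited table (FDR = 1.87e-06). For met-8 the implied mean was 96675 in wild type, 30947 without sds3, 67970 without rlp1, 61698 without rlp2 and 51431 in the eaf-3 deletion. In the same table met-8 had a log2 fold change of -1.64 ± 0.38 (FDR = 0.000134). Of the 5 members of amino acid and one-carbon synthesis 4 fell, the fifth being ilv-2, a branched-chain amino acid gene (-0.73 ± 0.31, FDR = 0.057). Over the whole table, 36 of 68 genes of that list fell and 2 rose. The carrier gene aac (-1.17 ± 0.35, FDR = 0.00378), oli (-1.27 ± 0.30, FDR = 0.000238), the proton pump gene pma-1 (-0.87 ± 0.20, FDR = 0.000166) and the actin gene act (-1.35 ± 0.29, FDR = 2.69e-05) also fell in the authors' deposited table. Both mitochondrial members fell, but over the whole respiration list 11 of 60 genes fell (18.3%, against 15.7% of all genes), 4 rose and the median was -0.28. Of the 3 members of protein folding and turnover, hsp70-2 fell (-1.55 ± 0.37) and so did the cyclophilin gene csr-1 (-0.73 ± 0.24), while ubi, which encodes ubiquitin, did not pass (0.31 ± 0.17).

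Genes of sugar metabolism mostly did not pass the test. Of 8 members of glycolysis and fermentation only cfp rose without sds3 (0.85 ± 0.29, FDR = 0.0153 in the authors' deposited table), none fell, and the median was 0.24. For cfp the implied mean was 87336 in wild type, 157029 without sds3, 185210 without rlp1, 117923 without rlp2 and 127046 in the eaf-3 deletion, so wild type was the lowest of the 5 groups. The log2 fold changes without sds3 of the genes that did not pass were 0.14 ± 0.29 for gpd-1, 0.18 ± 0.33 for emp-7, 0.72 ± 0.53 for adh-1, -0.33 ± 0.37 for fba, 0.30 ± 0.31 for the phosphoglycerate kinase gene pgk, -0.09 ± 0.34 for the pyruvate kinase gene ace-8 and 0.29 ± 0.43 for emp-6. With a median standard error of 0.33 over the members, a 95% interval spans about 0.64 on either side. A call at an FDR under 0.05 asks for a larger change than this. Changes of that size or smaller were therefore mostly not detectable.

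**Figure D2:**
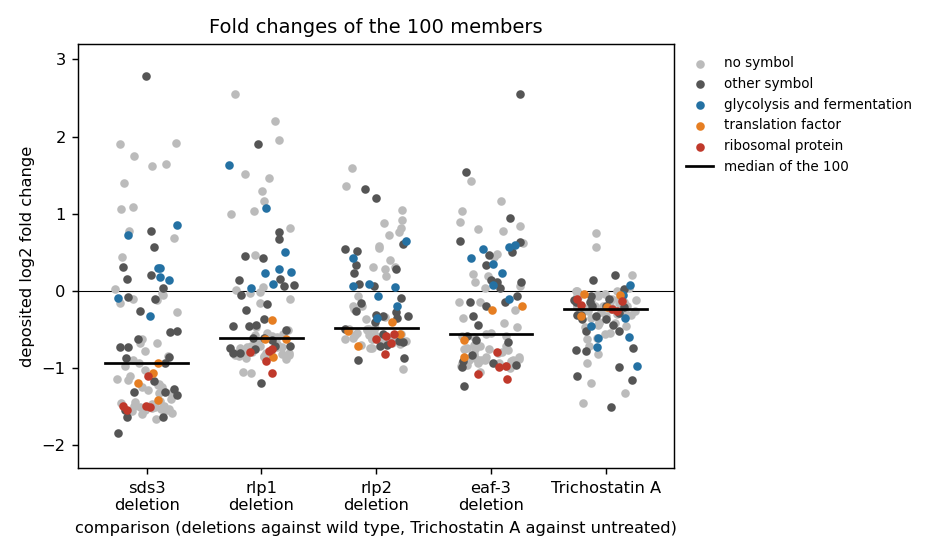
The deposited log2 fold change of each of the 100 members in the 5 comparisons, coloured by role, with the median as a black line. Without sds3, ribosomal protein and translation genes lie from -1.55 to -0.94, where the member median is -0.94 and the lowest member value -1.84. Glycolysis and fermentation genes lie around 0 there, while the Trichostatin A values are the most compact.

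Cell wall and clock-controlled members went in both directions without sds3. The few clock-controlled members did not stand for their list, of which 12 of 23 genes rose and 1 fell over the whole table, with a median of 1.61. Of 108 genes of the wall list, 16 rose and 21 fell. Of the wall genes in the authors' deposited table, acw-3, which encodes an anchored wall protein, rose by 0.78 ± 0.27 (FDR = 0.0156) and the glucanosyltransferase gene gel-3 by 0.57 ± 0.22 (FDR = 0.0275), while acw-9 fell by 0.86 ± 0.17 (FDR = 7.45e-06). The clock-controlled gene ccg-16 fell by 1.64 ± 0.35 (FDR = 3.46e-05). The largest rise of any member was that of ccg-14, which encodes a small secreted protein, at 2.79 ± 0.52 (FDR = 1.72e-06). Its implied mean was 4700 in wild type, 32462 without sds3, 17563 without rlp1, 11760 without rlp2 and 27474 in the eaf-3 deletion. In wild type it thus lay far below the edge of the set. The other large rises without sds3 were those of NCU07257 (1.92 ± 0.32), NCU04314 (1.91 ± 0.27), NCU16673 (1.75 ± 0.57) and NCU05498 (1.64 ± 0.31) in the authors' deposited table. Their implied wild type means were 8624, 10690, 8380 and 13798, also below the edge of the set, so their membership rested on the deletion groups. The conidial markers were higher in the implied mean without sds3 than in wild type, at 633 for con-6, 4698 for con-8, 856 for con-10 and 8.52 for con-13, and their part in these rises and falls was not tested. Their averages over the set were 240, 3534, 512 and 14.3 in the same order. The other deletions were not computed, so these rises are not shown to be particular to sds3. For con-13 the average lay above both the wild type and the sds3 mean. Of the 56 members without a symbol, 37 fell and 8 rose without sds3, with a median of -1.12 and values from -1.66 for NCU06843 to 1.92.

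Without rlp1 the calls were split, while 70 of the 100 members had a log2 fold change below 0. By the authors' deposited table, the members that fell numbered 15, against 8.61% of all tested genes, while 13 rose, against 14.6%, with a median of -0.60 against 0.00 over all genes. The falls were led by ilv-2 (-1.19 ± 0.31, FDR = 0.00156), po (-1.07 ± 0.36, FDR = 0.0171), NCU09326 (-1.05 ± 0.26, FDR = 0.000581) and ubi::crp-6 (-0.91 ± 0.29, FDR = 0.0113). Of the 5 ribosomal protein genes 2 fell, and of the 4 translation genes cpc-2 fell (-0.86 ± 0.33, FDR = 0.0405). The rises were led by NCU07257, whose implied mean was 8624 in wild type, 32608 without sds3, 50658 without rlp1, 25960 without rlp2 and 15407 in the eaf-3 deletion. It rose without rlp1 in the authors' deposited table by 2.55 ± 0.32 (FDR = 3.34e-13), followed by NCU16673 (2.20 ± 0.57, FDR = 0.00125), NCU05498 (1.96 ± 0.31, FDR = 1.09e-08) and ccg-14 (1.90 ± 0.52, FDR = 0.00263). As given above, each of these lay below the edge of the set in the implied wild type mean. The fermentation genes adh-1 (1.63 ± 0.53, FDR = 0.0133) and cfp (1.08 ± 0.29, FDR = 0.00219) also rose. For adh-1 the implied mean was 28183 in wild type, 46385 without sds3, 87361 without rlp1, 44014 without rlp2 and 42280 in the eaf-3 deletion.

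Without rlp2 few members passed the test. By the authors' deposited table, the members that fell numbered 3, against 4.02% of all tested genes, and 6 rose, against 6.99%, with a median of -0.48 against 0.00. The falls were those of NCU07922 (-1.01 ± 0.28, FDR = 0.00495), the serine hydroxymethyltransferase gene for (-0.72 ± 0.21, FDR = 0.0112) and NCU07420 (-0.56 ± 0.18, FDR = 0.0193). The rises were those of NCU07257 (1.59 ± 0.32), NCU05498 (1.36 ± 0.31), NCU07287 (1.05 ± 0.24), NCU04314 (0.82 ± 0.27), NCU06402 (0.76 ± 0.24) and ubi (0.54 ± 0.17). In the implied wild type mean all of these but NCU06402 (18625) lay below 18387, the lowest average of the set. None of the 6, NCU06402 included, stood among the 100 highest implied wild type means, where 0 genes rose without rlp2. The membership of all 6 thus rested on the deletion groups. None of the ribosomal protein genes passed, with values from -0.82 to -0.56, and none of the translation or glycolysis genes did.

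Without eaf-3, 25 members fell, against 11.5% of all tested genes, and 10 rose, against 20.2%, in the authors' deposited table. The share of rises was also below 20.2% in the next ranks by average. It was 11% at ranks 101 to 200, 16.7% at ranks 201 to 500 and 11.4% at ranks 501 to 1000. The member median was -0.55, against 0.08 over all genes. All 5 ribosomal protein genes fell, with a median of -0.99, among them po (-1.14 ± 0.36, FDR = 0.00717) and crp-10 (-1.08 ± 0.41, FDR = 0.029). The largest fall was that of ilv-2 (-1.23 ± 0.31, FDR = 0.000791), whose implied mean was 37236 in wild type, 22443 without sds3, 16293 without rlp1, 20406 without rlp2 and 15904 in the eaf-3 deletion. Among translation genes cpc-2 fell (-0.86 ± 0.33, FDR = 0.0321), while tef-1 had a value of -0.20 ± 0.34 that did not pass. The rises were led by ccg-14 (2.55 ± 0.52, FDR = 1.75e-05), mig-6 (1.54 ± 0.49, FDR = 0.00801), NCU05498 (1.43 ± 0.31, FDR = 5e-05) and NCU00673 (1.16 ± 0.31, FDR = 0.00131). Each of these also lay below the edge of the set in the implied wild type mean. The wall protein gene ncw-1 rose (0.95 ± 0.37, FDR = 0.0347), as did ubi (0.64 ± 0.17, FDR = 0.000868) in the authors' deposited table. All 4 deletions are compared with the same wild type libraries, so that a value of those libraries moves all 4 fold changes of a gene together.

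**Figure D3:**
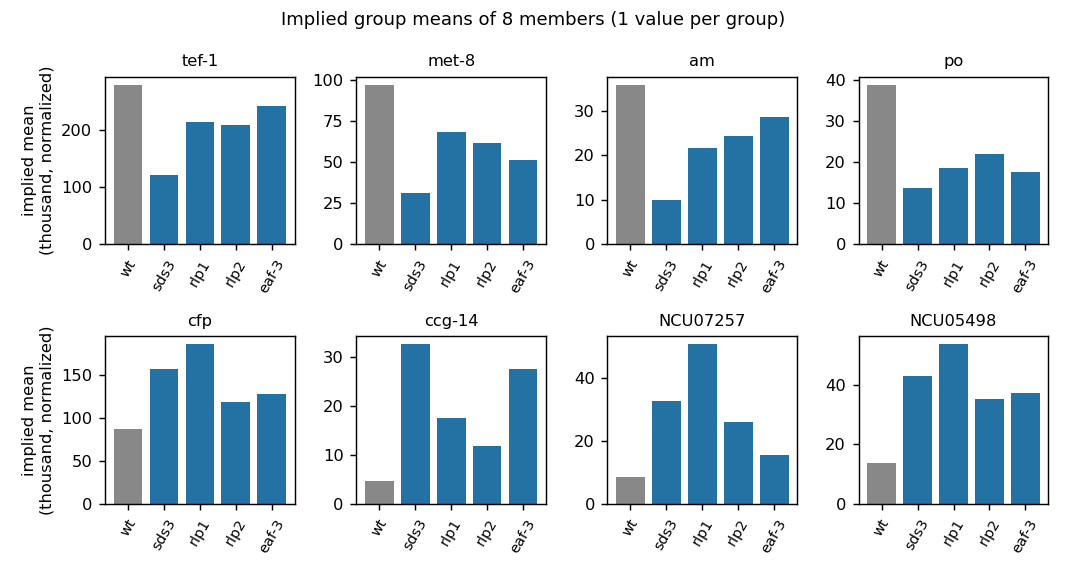
Implied mean (normalized signal divided by 1000, bars from 0) of 8 members in wild type and the 4 deletions, with 1 value per group and no spread available. Wild type is the highest bar for tef-1, met-8, am and po and the lowest for cfp, ccg-14, NCU07257 and NCU05498.

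Differences between deletions were tested gene by gene over the whole tables, with both errors taken as independent. Between sds3 and eaf-3, 8 members passed, against 20.3% of all genes with both values. In the sds3 minus eaf-3 difference, NCU04314 was higher (1.78 ± 0.38, FDR = 5.06e-05), while ccg-16 (-2.27 ± 0.50, FDR = 0.000113), NCU06132 (-1.40 ± 0.32, FDR = 0.000302), pma-1 (-0.99 ± 0.29, FDR = 0.00542), am (-1.52 ± 0.49, FDR = 0.0146), act (-1.21 ± 0.40, FDR = 0.0187) and ncw-1 (-1.48 ± 0.52, FDR = 0.0271) were lower. The eighth, NCU07922, was lower by -1.02 ± 0.39 (FDR = 0.0471). For ccg-16 the implied mean was 42359 in wild type, 13562 without sds3, 37667 without rlp1, 44952 without rlp2 and 65484 in the eaf-3 deletion, so the sds3 group stood alone at the low end. Between sds3 and rlp1 (10.2% of all genes called) and between sds3 and rlp2 (7.43%), ccg-16 was the single member that passed, at -1.47 ± 0.50 (FDR = 0.036) and -1.73 ± 0.50 (FDR = 0.0127).

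With independent errors the remaining pairs separated few or no members. Between rlp1 and eaf-3 (13% of all genes called) the members NCU07257 (1.72 ± 0.46, FDR = 0.00299), NCU04314 (1.34 ± 0.38, FDR = 0.00518) and NCU10051 (2.21 ± 0.63, FDR = 0.00609) were higher without rlp1. For NCU10051 the implied mean was 14825 in wild type, 14356 without sds3, 42270 without rlp1, 18406 without rlp2 and 9136 in the eaf-3 deletion. Between rlp1 and rlp2 (0.99% of all genes called) and between rlp2 and eaf-3 (9.41%) no member passed by this test, with 1 member in each at an unadjusted p under 0.05. With independent errors no member on the ribosomal protein or translation lists passed in any of the 6 pairs. For po the difference sds3 minus rlp2 was -0.68 ± 0.51 (FDR = 0.519). The independent errors overstate the error of a difference between groups that share a control. The members called with 1/2 of the smaller squared error taken as shared were 16 for sds3 minus eaf-3 and 12 for sds3 minus rlp2. They were 7 for sds3 minus rlp1 and 10 for rlp1 minus eaf-3, where 4 were higher and 6 lower without rlp1. For rlp2 minus eaf-3 they were 3, and for rlp1 minus rlp2 they were 0. The share of all genes called under that error was not computed, so these counts say nothing about the members relative to other genes. Under that error tef-1, with log2 fold changes of -1.20 without sds3 and -0.20 without eaf-3, passed for this pair (difference ± 0.34, FDR = 0.0115). It was the single member on those 2 lists to pass in any pair. The values nearest to it for sds3 minus rlp2 were -0.99 ± 0.40 for crp-5 (FDR = 0.0607) and -0.93 ± 0.40 for cyh-2 (FDR = 0.0785).

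With Trichostatin A no member rose, against 5.15% of all tested genes, and 5 fell, against 3.62%, in the authors' deposited table. The lack of rises was not particular to the members. At ranks 101 to 200 by average 0% rose, at ranks 201 to 500 1.33% and at ranks 501 to 1000 1.2%. The member median was -0.23, against -0.10 over all genes, and member values ran from -1.50 to 0.75. The falls were those of acw-9 (-1.50 ± 0.40, FDR = 0.0049), NCU06132 (-1.46 ± 0.31, FDR = 0.000195), ccg-15, which is also the wall protein gene acw-1 (-1.10 ± 0.33, FDR = 0.0167), ccg-6 (-0.99 ± 0.30, FDR = 0.0156) and met-8 (-0.77 ± 0.20, FDR = 0.00242). Over the whole tables, 7 genes of the wall list rose (6.67%) and 8 fell (7.62%) with the drug. Of the clock-controlled list, 2 rose and 2 fell (8.7% each). The medians of these lists were -0.26 and -0.24. The ribosomal protein genes had values from -0.26 to -0.10 and the translation genes from -0.33 to -0.04, none past the test. The 8 glycolysis and fermentation genes had a median of -0.53, and none passed, with errors as wide as ± 0.98 for adh-1 and ± 0.83 for cfp.

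The Trichostatin A values were then set against each deletion, although strain, control and normalization differ between these sets. Against sds3 (11% of all genes called) 10 members passed, 5 in each direction, among them NCU03600 (-2.82 ± 0.55, FDR = 2.68e-05), which rose without sds3 (1.62 ± 0.32) and had a value of -1.20 ± 0.45 with the drug, and ccg-16 (1.66 ± 0.48, FDR = 0.00967). After both tables were centred on their median over all genes, 32 members passed against sds3, 29 of them higher with the drug. The share of all genes called after centring was not computed. Against rlp1 (5.9% of all genes called) 5 members passed, against rlp2 (4.64%) 3 and against eaf-3 (12.2%) 5, all lower with the drug. NCU06132 differed from rlp1 by -1.50 ± 0.39 (FDR = 0.00474), from rlp2 by -1.74 ± 0.39 (FDR = 0.000883) and from eaf-3 by -2.22 ± 0.39 (FDR = 1.28e-06). It rose without eaf-3 (0.77 ± 0.23, FDR = 0.00451) and fell without sds3 (-0.63 ± 0.23, FDR = 0.0217) in the authors' deposited tables.

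Of the 100 members, 13 did not pass the test in any of the 5 tables. They include 5 of the 7 highest averages, namely nmt-1, NCU06110, gpd-1, emp-7 and hex-1. The implied mean of hex-1 was 88971 in wild type, 74253 without sds3, 98009 without rlp1, 104452 without rlp2 and 91171 in the eaf-3 deletion, and that of nmt-1 was 170760, 197347, 180663, 213985 and 214709 in the same order. The spread of these groups about their means is not known, and a test that is not passed does not show that they were equal. The others were fba, pgk, ace-8, emp-6, the 14-3-3 protein gene nfh-2, NCU09175, NCU05259 and NCU02136. Thus 6 of the 8 glycolysis and fermentation members are among the 13. The share of all genes that passed in none of the comparisons was not computed. The count of 13 therefore says nothing about the members relative to other genes.

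The count of falls without sds3 depended on level, as the plot of calls by rank shows. The genes ranked 101 to 200 had nearly the same values as the members: 60 of 100 fell, 9 rose and the median was -0.78. Of the 300 genes ranked 201 to 500, 31% fell and the median was -0.30, and of those ranked 1001 to 2000, 19.5% fell with a median of -0.05. Without eaf-3 the share of falls went from 25% of the members to 18% at ranks 101 to 200 and 13.7% at ranks 201 to 500, and then stood at 17.4%, 16.5% and 16.3% in the next ranks. Without rlp1 it was 15% of the members, 21% at ranks 101 to 200, 10.7% at ranks 201 to 500 and 15% at ranks 501 to 1000, with no steady order. Without rlp2 and with Trichostatin A no such step was seen, and the share of falls with the drug was 5% of the members, 9% at ranks 101 to 200 and 10.3% at ranks 201 to 500. Without sds3 alone the share of falls was nearly equal in the first and the second 100 genes and decreased in each later range.

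**Figure D4:**
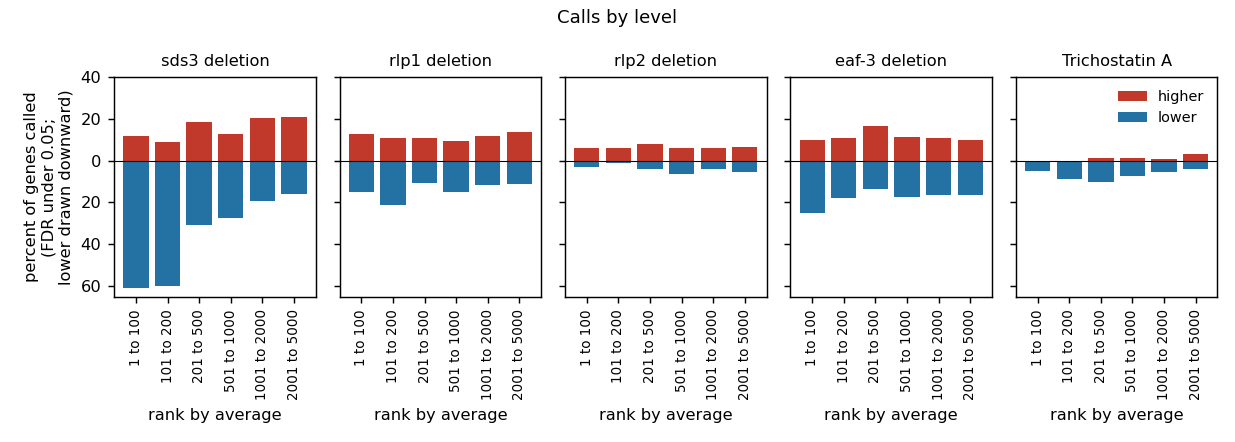
Percent of genes with FDR under 0.05 that were higher (red, upward) or lower (blue, downward) by rank of the deposited average, in each comparison. Without sds3, 61% and 60% of the first and second 100 genes were lower, and 16% of the genes ranked 2001 to 5000.

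The error of the fold change did not shrink with level in the deletion set. The median standard error was 0.33 for the members, 0.30 at ranks 101 to 200, 0.25 at ranks 201 to 500 and 0.22 at ranks 1001 to 2000 in the sds3 table. In the Trichostatin A table it was 0.32 for the members and between 0.33 and 0.36 in the later ranks. Among the members, the error without sds3 ran from 0.16 to 0.57. Each member had the same implied error in all 4 deletion tables, within 0.01, so that the 4 tables carry 1 error per gene and not 4 separate estimates. The source of the order by level was not tested.

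**Figure D5:**
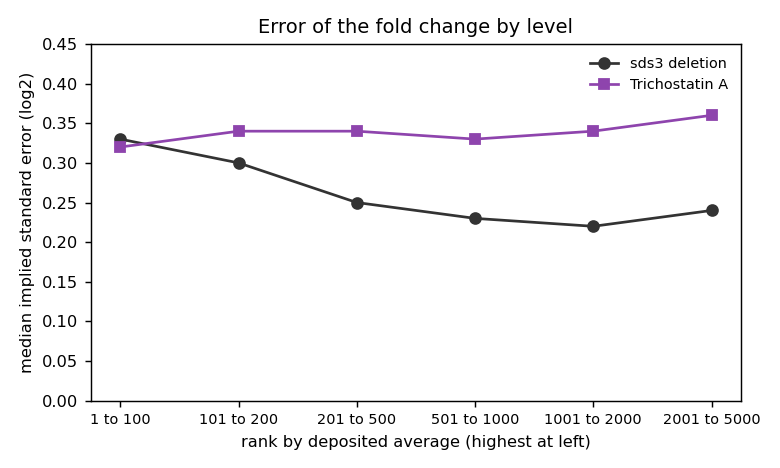
Median implied standard error of the log2 fold change by rank of the deposited average, for the sds3 deletion and Trichostatin A tables. The sds3 value is highest for the 100 members (0.33) and lowest at ranks 1001 to 2000 (0.22), while the Trichostatin A value stays between 0.32 and 0.36.

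The direction of small changes depended on the scale. The 1000 genes of highest average had a median log2 fold change of -0.31 without sds3, -0.25 without rlp1, -0.13 without rlp2, -0.15 without eaf-3 and -0.23 with Trichostatin A. Relative to these, 46 members were lower and 15 higher without sds3, 3 lower and 16 higher without rlp1, 2 lower and 8 higher without rlp2, 8 lower and 12 higher without eaf-3, and 2 lower and none higher with the drug. The share of all genes called on that scale was not computed. On that scale the 5 ribosomal protein genes still fell without sds3 (median -1.19), 1 of 5 passed without eaf-3 and none without rlp1. Their median with Trichostatin A changed sign, from -0.18 to 0.05, as did that of the translation genes, from -0.13 to 0.10. The glycolysis and fermentation median kept its sign in each of the 5 comparisons, at 0.55 without sds3, with 1 gene higher there, 3 higher without rlp1 and 1 higher without eaf-3, where none had passed as deposited.

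The members were spread over all 7 linkage groups of the NC12 gene table. Linkage group II held 15.2% of the 99 placed members against 10.7% of all genes, V held 20.2% against 16.3%, and IV held 9.09% against 15.1%. Near the ends of linkage groups, among the outermost 50 genes, stood 8 members or 8.08%, against 7.24% of all genes. Direct neighbours were 3 pairs of members: ubi::crp-6 beside crp-5, NCU09475 beside NCU09476, and NCU09476 beside aac. The number in a random set of genes was not computed. The fold changes of the last 3 genes without sds3 were -1.33 ± 0.31 for NCU09475, -0.98 ± 0.31 for NCU09476 and -1.17 ± 0.35 for aac in the authors' deposited table. Another 4 pairs stood within 3 genes, among them ccg-16 and NCU05498, which went in opposite directions without sds3 (-1.64 ± 0.35 and 1.64 ± 0.31). The median gene length of the members was 2390 bases against 2169 over all genes, with a range from 829 for ccg-16 to 5641 for ace-8.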

How the data were processed

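RNA of 14 libraries was sequenced after a stranded mRNA library kit, per the labels' protocols. Per the submitters' processing notes, the tools were DESeq2 1.24.0, STAR 2.7.3a and RSEM 1.3.1, listed without roles. The sources used here give no build, annotation or strand setting. The authors deposited, for every gene, a p-value and its FDR, a log2 fold change, a category score and an average, which is a normalized signal. Recomputed Benjamini-Hochberg values matched the deposited FDR. The category score differed from 0 exactly at genes below an FDR of 0.05 whose fold change passed 2 on the log2 scale in either direction. The number of columns with values per library was 0, so no model was refitted and depth per library was unknown.

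The 100 members and all gene lists were chosen with earlier results of these data known. Lists were matched on symbols and synonyms of the NC12 gene table (99 of 100 members matched), and pgk, oli, cyh-2 and hex-1 were placed in them after the tables were opened. Genes named are the 15 highest members, the 5 largest rises and falls per table, listed symbols, members at the edge, those called in no table and the 5 smallest adjusted p-values per pair. Any others, such as the neighbours NCU09475 and NCU09476, were chosen after their values were seen. Standard errors are the absolute log2 fold change over the normal quantile of the deposited p-value. Differences of fold changes were tested two-sided with a normal quantile and Benjamini-Hochberg adjustment over all genes with both values (Python 3.11.15, scipy 1.17.1). The method was tested on simulated data with independent errors, which cannot show how it behaves when the wild type libraries are shared. Level per kb used gene length, since no coding length was given. Ribosomal protein and other multigene families may share reads.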

Additional observations from a re-analysis of the deposited data

How the results depend on the processing

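Of the alternative values, 89 stayed within 1.5 times the reported count or within 1 median standard error of the reported median, and 32 moved further. For a stricter FDR, the authors' category, centring and shared error, only members were counted, and the share of all genes called was not computed. That margin is wide for the medians: the Trichostatin A median went from -0.23 to -0.00 and the rlp1 median from -0.60 to -0.35 when centred on the 1000 genes of highest average. No median changed sign, but the balance of calls turned, on that scale from 13 higher and 15 lower to 16 and 3 without rlp1 and from 10 and 25 to 12 and 8 without eaf-3. Ranking by implied wild type mean turned it from 6 and 3 to 0 and 3 without rlp2, and sharing the error turned rlp1 minus eaf-3 from 3 and 0 to 4 and 6. With an FDR under 0.01 the percent of members called was 14 without rlp1, 4 without rlp2, 12 without eaf-3 and 3 with Trichostatin A. By the authors' own category it was 1 without sds3, 2 without rlp1, 0 without rlp2, 1 without eaf-3 and 0 with Trichostatin A. Centred on the 1000 genes of highest average it was 20 without eaf-3 and 2 with Trichostatin A. Ranked by implied wild type mean it was 3 without rlp2, and among the 50 highest genes 10 with Trichostatin A. The median of the 50 highest was -0.57 without sds3 and -0.12 without eaf-3, and that of the 100 highest implied wild type means was -1.29 without sds3, a ranking that favours genes high in wild type.

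Members whose fold changes differed between deletions numbered, at an FDR under 0.01, 0 for sds3 minus rlp1, 0 for sds3 minus rlp2 and 4 for sds3 minus eaf-3. With part of the error shared they were 7, 12 and 16 for these pairs, 10 for rlp1 minus eaf-3 and 3 for rlp2 minus eaf-3. Centred on all genes, sds3 minus rlp2 gave 2. For Trichostatin A the counts at an FDR under 0.01 were 3 against sds3, 2 against rlp1, 1 against rlp2 and 2 against eaf-3, and after centring, which was chosen after seeing the data, 32 against sds3, 3 against rlp1 and 3 against eaf-3. The cause was not tested. No paired analysis was possible because the tables hold no values per library, and for the same reason no replicate could be left out.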
